A study of Mus musculus with 24 samples.

Results

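The transcripts of 9 liver enzymes that break down tyrosine, tryptophan, glycine and glyoxylate were followed in mouse liver after bariatric surgery. The enzymes were listed by name, and the list was drawn up with earlier results of these data known. They are Tat, Hpd, Hgd and Fah of tyrosine breakdown, Tdo2, Kmo and Haao of tryptophan breakdown, and Agxt and Gldc of glyoxylate and glycine metabolism. They are 9 of the 14995 genes counted, and all 9 were among the 13121 genes with enough counts to be tested. Liver RNA of a study of obese mice was read in 24 libraries, 8 in each of 3 groups, at 20 weeks after surgery. The RYGB group had Roux-en-Y gastric bypass, an operation that joins a small stomach pouch to a lower stretch of the small intestine. The WM group was weight-matched by caloric restriction. The Sham group had a sham operation. The labels used here give no strain, sex, age, diet or batch, and they do not say in so many words that each library is a separate animal, so the p-values measure the spread between these libraries.

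Most of these enzymes work mainly in the hepatocyte, the main cell of the liver. Tyrosine loses its amino group, is opened at the ring and ends as fumarate and acetoacetate, which feed glucose and ketone synthesis. Tryptophan is opened by a dioxygenase and passes along the kynurenine pathway, which either burns it or makes NAD from it. Glycine is cleaved in mitochondria to carbon dioxide, ammonia and a one-carbon unit for folate, and glyoxylate is turned back into glycine in peroxisomes before it can be oxidised to oxalate. Glucocorticoids and glucagon are known to raise Tat in liver, and Tdo2 is a classical glucocorticoid target.

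The level of a gene is given as CPM, the count scaled to a common library size after adjustment by the trimmed mean of M-values (TMM). The kit reads near the end of each transcript, and no division by length was made. Levels of different genes compare only roughly, since they also lean on GC content and transcript length as given below. Differences are log2 fold changes with their standard errors from edgeR's quasi-likelihood test over all 24 libraries. A gene is called at a Benjamini-Hochberg adjusted p under 0.05 over all 13121 tested genes. The comparisons of RYGB and of WM with Sham share the 8 Sham libraries and are not independent.

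Promoter sequences of 3 members are shown because their transcripts differed in 3 ways: Tat was called in RYGB, Agxt was called higher in both groups, and Gldc was called lower in WM. Each runs 5′ to 3′ from 250 bases before to 50 bases after the RefSeq start in GRCm38.p6. Capitals mark the letters CCAAT or TGTTCT on either strand, so that ATTGG marks CCAAT on the other strand.
Tat, chr8:109990186-109990485, plus strand: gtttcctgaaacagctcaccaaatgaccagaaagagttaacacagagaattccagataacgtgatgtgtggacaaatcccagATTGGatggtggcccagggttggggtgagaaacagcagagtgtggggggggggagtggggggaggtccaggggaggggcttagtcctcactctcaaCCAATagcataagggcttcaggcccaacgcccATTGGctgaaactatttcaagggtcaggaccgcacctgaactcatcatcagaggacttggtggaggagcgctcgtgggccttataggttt
Agxt, chr1:93134990-93135289, plus strand: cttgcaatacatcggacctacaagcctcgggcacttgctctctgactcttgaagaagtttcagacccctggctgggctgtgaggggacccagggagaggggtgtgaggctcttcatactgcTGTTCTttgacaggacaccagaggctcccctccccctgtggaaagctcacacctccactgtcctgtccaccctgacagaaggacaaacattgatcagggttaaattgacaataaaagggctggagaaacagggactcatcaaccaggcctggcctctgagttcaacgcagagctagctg
Gldc, chr19:30175392-30175691, minus strand: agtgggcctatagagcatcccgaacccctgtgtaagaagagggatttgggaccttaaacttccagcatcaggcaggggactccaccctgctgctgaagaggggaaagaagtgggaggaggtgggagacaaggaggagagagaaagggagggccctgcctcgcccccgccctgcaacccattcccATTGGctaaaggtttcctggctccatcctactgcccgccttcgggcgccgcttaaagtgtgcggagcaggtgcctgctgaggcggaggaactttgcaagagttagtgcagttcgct

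The Tat window holds 3 CCAAT matches, the Gldc window 1, and the Agxt window none but 1 match to TGTTCT, which is one arm of the glucocorticoid response element. Of the 9 members' windows, 4 held CCAAT (Tat, Hgd, Tdo2 and Gldc), against 37.4% of 32851 mouse promoters of the same length. TGTTCT was in 3 (Kmo, Haao and Agxt), against 19.0% of promoters. TATAAA was in 2 (Hgd and Tdo2), against 13.6%, and GTTAAT was in 1 (Haao), against 7.10%. Matches to different motifs did not overlap in the printed windows. A match describes these letters only.

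Several facts of the libraries touch the members. Counts summed to 14002193 to 19958019 in RYGB, 14208021 to 22766612 in WM and 13659647 to 17391377 in Sham libraries. The summed level of 9 measured hepatocyte markers was 100583 to 173127 CPM in RYGB, 97794 to 171610 CPM in WM and 44119 to 100192 CPM in Sham. Of these markers, 7 of 9 rose in RYGB and 8 of 9 in WM, none fell, and none was at 0 in all libraries. Over all tested genes, 12.7% were called higher than in Sham in RYGB and 16.5% in WM. In bulk liver, fewer cells of a type and less RNA per cell cannot be told apart. The part of these marker levels in the members' results was not tested. Pancreatic acinar transcripts (15 of 17 markers measured) summed to 3190 CPM in RYGB 19, 3097 CPM in RYGB 18 and 1426 CPM in Sham 17, and to at most 188 CPM in each of the other 21 libraries. In WM this sum was nearly all Cela1, which averaged 122 CPM, while each other measured marker averaged at most 0.703 CPM. Cela1 was called higher than in Sham in RYGB (2.08 ± 0.55) and in WM (2.29 ± 0.56). The libraries also differed in how a gene's level leaned on the GC content of its transcript. The slope ran from -0.283 to 0.463 log2 units per 10 points of GC in RYGB (median -0.0965), from -0.379 to 0.914 in WM (median 0.0515) and from -0.373 to 0.294 in Sham (median -0.164). WM 9 and WM 25 were at the low and high ends of WM, and Sham 2 and Sham 3 at the ends of Sham. The slope on transcript length separated the groups: it was -0.173 to 0.00772 log2 units per doubling of length in RYGB and -0.184 to 0.0205 in WM, against 0.0744 to 0.211 in Sham. At a given GC content, longer transcripts thus stood relatively lower in RYGB and WM than in Sham. The members' transcripts ran from 1404 bases for Hpd, 1553 for Agxt, 1585 for Fah and 1702 for Hgd through 2375 for Tat to 3118 for Haao, 3431 for Tdo2, 3672 for Kmo and 3767 for Gldc. Since the length slope moved with each comparison against Sham, values corrected for GC content and length together are given beside the members below.

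Against Sham, 3 of the 9 enzymes were called higher in RYGB (Tat, Hgd and Agxt) and none lower. Of all tested genes, 23.7% were called in that comparison, 12.7% higher and 11% lower. With no adjustment, 1 member (Gldc) had a p under 0.05 in the lower direction, DESeq2 called none lower, and a fit of the compared groups alone called 1. In WM, 3 members were called higher than in Sham (Fah, Tdo2 and Agxt) and 1 lower (Gldc), against 31.4% of all tested genes, 16.5% higher and 15% lower. The median log2 difference of the 9 was 0.63 in RYGB and 0.50 in WM, beside -0.01 over all tested genes in each. With 9 members, these counts are not read as apart from those shares. Without Sham 3, 5 members were called higher in RYGB, Hpd and Fah being added.

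**Figure D1:**
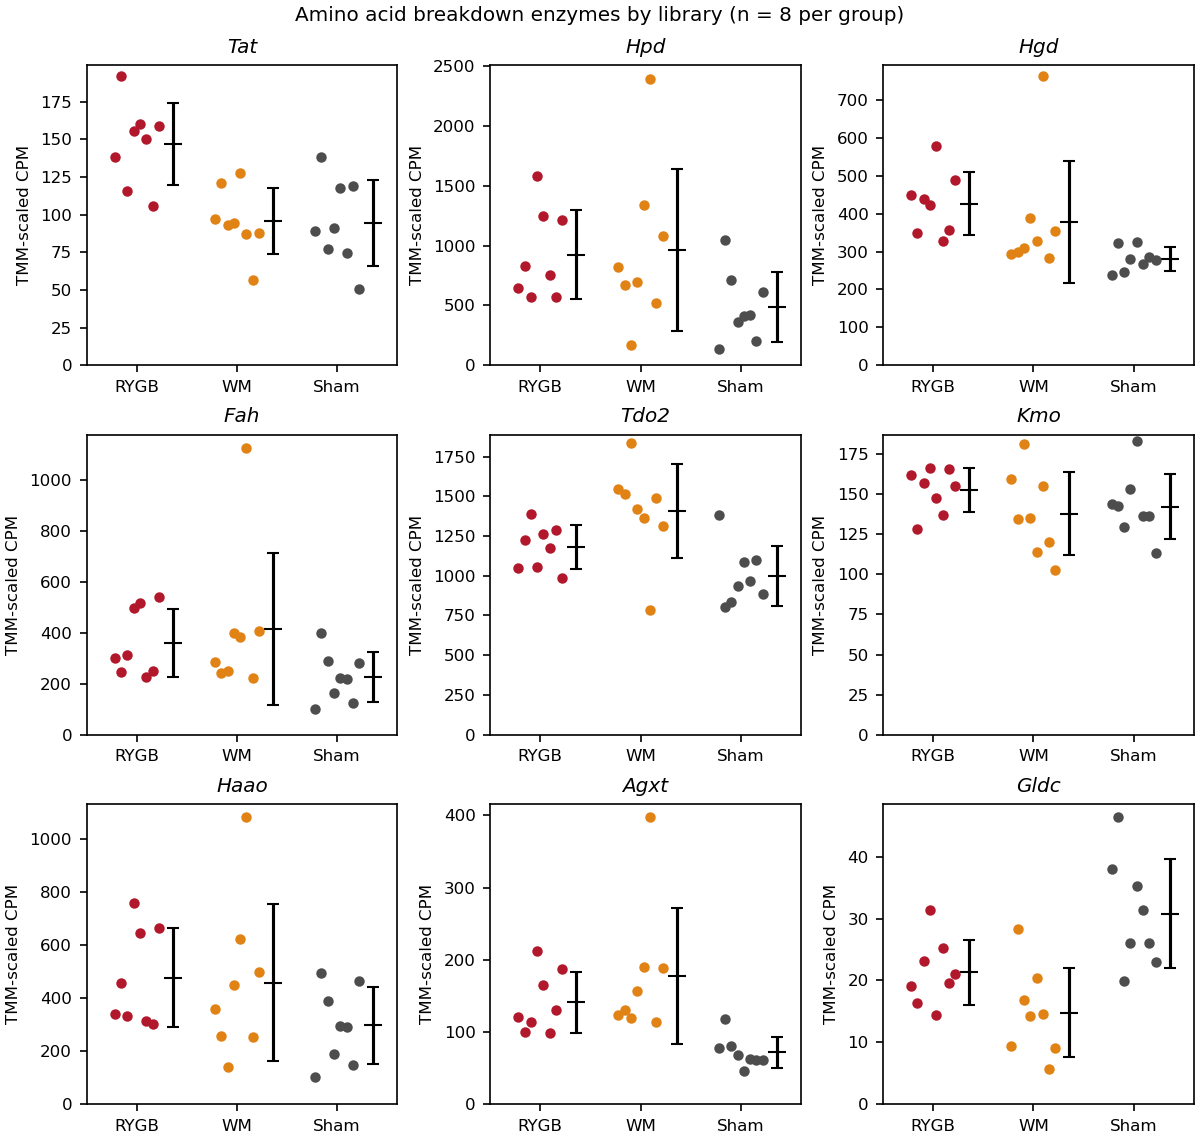
Level of each enzyme in TMM-scaled CPM (linear axis from 0) in every library, with RYGB, WM and Sham from left to right in each panel and the group mean ± SD (n = 8) beside the points. Agxt stands higher in RYGB and WM than in Sham, Gldc lowest in WM, and WM 25 is the highest WM library for Hpd, Hgd, Fah, Haao and Agxt.

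Tat, tyrosine aminotransferase, catalyses the first and rate-limiting step of tyrosine breakdown (chromosome 8, 109990437 to 109999803, GRCm38, plus strand). Its level was 106 to 192 CPM in RYGB (median 153 CPM), 56.9 to 128 CPM in WM (median 93.7 CPM) and 50.5 to 138 CPM in Sham (median 90.0 CPM). All 8 RYGB libraries lay above the Sham median and 6 lay above the highest Sham library, so that the groups overlapped in RYGB 28 and RYGB 15. The mean rose to 147 ± 27.3 CPM in RYGB, against 94.7 ± 28.6 CPM in Sham (SD, n = 8 each), a log2 difference of 0.63 ± 0.19 (SE, adjusted p = 0.0127). After the GC and length correction the difference in RYGB was 0.56 (adjusted p = 0.0259), and that in WM was -0.07 (adjusted p = 0.813). In WM Tat averaged 95.7 ± 21.9 CPM, a difference from Sham of 0.01 (adjusted p = 0.962) with a 95% interval of the fold from 0.777 to 1.31. Tat was thus the member with a call in RYGB and a WM mean next to that of Sham. The direct comparison of RYGB with WM gave 0.62 ± 0.19 (adjusted p = 0.0963), with all 8 RYGB libraries above the WM median and 6 above the highest WM library. DESeq2 called that difference (adjusted p = 0.0471), and over the alternatives tried the adjusted p ran from 0.0471 to 0.264.

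Hpd, 4-hydroxyphenylpyruvate dioxygenase, makes homogentisate in the next step (chromosome 5, 123171807 to 123182727, minus strand). It had 568 to 1581 CPM in RYGB (median 792 CPM), 169 to 2394 CPM in WM (median 758 CPM) and 136 to 1046 CPM in Sham (median 417 CPM). It was the most variable member, with a highest WM library (WM 25) 14.2 times the lowest (WM 9), and the groups overlapped widely. The means were 925 ± 376 CPM in RYGB, 961 ± 677 CPM in WM and 487 ± 295 CPM in Sham. The log2 difference from Sham was 0.93 ± 0.39 in RYGB (adjusted p = 0.0815) and 0.98 ± 0.39 in WM (adjusted p = 0.0535), so that neither passed the threshold. Of 36 alternatives, 24 of which left out 1 library each, 6 called it in RYGB and 5 in WM. Leaving out Sham 3 or WM 9 gave a call in RYGB (adjusted p = 0.0227 and 0.0496), and leaving out Sham 3, Sham 5, WM 7, WM 9 or WM 27 gave one in WM (adjusted p = 0.0141 to 0.0499). Without WM 25 the difference in WM was 0.63. After the GC and length correction the differences were 0.68 in RYGB and 0.60 in WM, and neither was called.

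Hgd, homogentisate 1,2-dioxygenase, opens the aromatic ring (chromosome 16, 37580153 to 37632020, plus strand). It had 327 to 578 CPM in RYGB (median 431 CPM), 283 to 764 CPM in WM (median 318 CPM) and 238 to 326 CPM in Sham (median 279 CPM). The RYGB and Sham libraries did not overlap, which held in the higher direction for 3.28% of all tested genes, while WM overlapped with both. The mean rose to 426 ± 83.0 CPM in RYGB, against 280.4 ± 32.0 CPM in Sham, a difference of 0.60 ± 0.18 (adjusted p = 0.0152). The call was lost after correction for GC content and transcript length (0.41, adjusted p = 0.104) and without RYGB 18, RYGB 19 and Sham 17 (0.52, adjusted p = 0.0816). In WM Hgd averaged 378 ± 160.2 CPM, a difference from Sham of 0.43 ± 0.18 (adjusted p = 0.0708), which was 0.20 without WM 25. Corrected for GC content and length, the difference in WM was 0.23 (adjusted p = 0.367).

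Fah, fumarylacetoacetase, splits the last intermediate and is the enzyme missing in human tyrosinaemia type I (chromosome 7, 84585159 to 84606722, minus strand). It had 227 to 540.4 CPM in RYGB (median 307 CPM), 223 to 1125 CPM in WM (median 334 CPM) and 102 to 399 CPM in Sham (median 221 CPM). All libraries of RYGB and of WM lay above the Sham median, and 3 RYGB and 2 WM libraries lay above the highest Sham library. The mean rose to 414 ± 297 CPM in WM, against 225 ± 98.0 CPM in Sham, a difference of 0.88 ± 0.31 (adjusted p = 0.0298). That call rested on single libraries: it was 0.48 (adjusted p = 0.155) without WM 25, and the adjusted p was 0.0565, 0.0585 and 0.0588 without Sham 2, Sham 6 or Sham 17. It was also lost after the GC and length correction (0.56, adjusted p = 0.0789). In RYGB Fah averaged 361 ± 133 CPM, a difference from Sham of 0.69 ± 0.31 (adjusted p = 0.109), which was called without Sham 3 (adjusted p = 0.0412) or without WM 25 (adjusted p = 0.0397). Corrected for GC content and length, the difference in RYGB was 0.46 (adjusted p = 0.172).

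Of the other 5 tested genes of phenylalanine and tyrosine breakdown, 3 rose in RYGB and 4 in WM, and none was called lower by edgeR or had an unadjusted p under 0.05 in that direction. The shares of all tested genes called higher were 12.7% in RYGB and 16.5% in WM. The pathway lists were chosen with earlier results of these data known. Qdpr and Pcbd1, which regenerate the cofactor tetrahydrobiopterin, rose in both groups, Qdpr by 0.96 ± 0.15 in RYGB and 0.94 ± 0.15 in WM, and Pcbd1 by 0.59 ± 0.18 in RYGB and 0.47 ± 0.18 in WM. Gstz1, which isomerises the substrate of Fah, rose in WM by 0.47 ± 0.15 (adjusted p = 0.0179) and had a difference of 0.33 ± 0.15 in RYGB (adjusted p = 0.111).

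**Figure D2:**
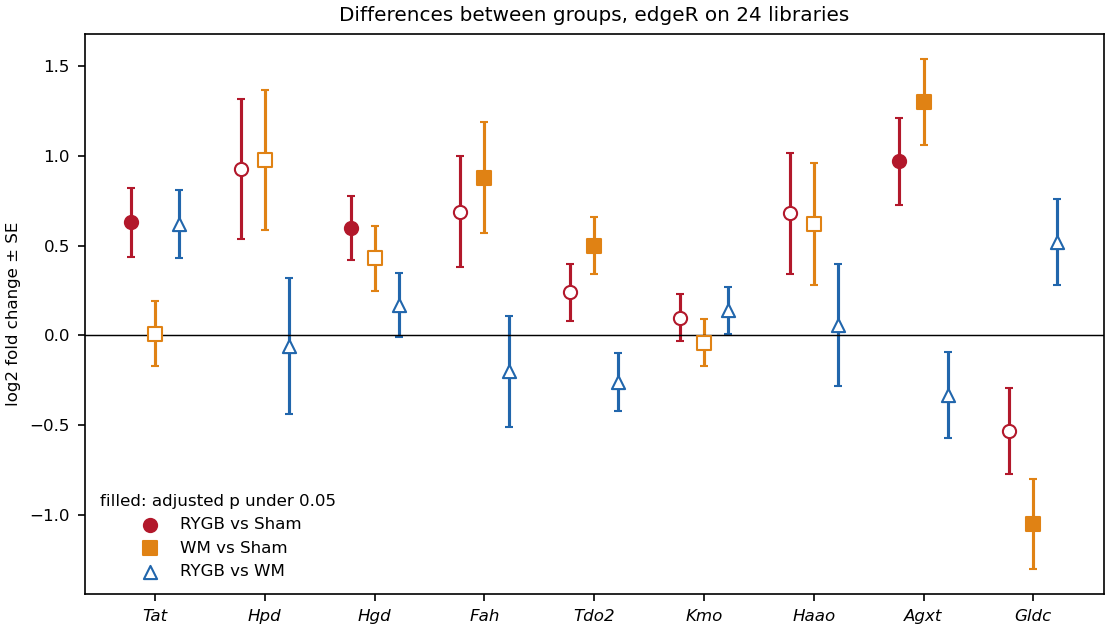
Log2 fold change of each enzyme with its standard error (vertical bars) for RYGB vs Sham, WM vs Sham and RYGB vs WM. Filled points have an adjusted p under 0.05: Agxt is filled in both comparisons with Sham, Gldc on the negative side for WM, and no point is filled for RYGB vs WM.

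Tdo2, tryptophan 2,3-dioxygenase, opens the ring of tryptophan and sets the rate of its breakdown in liver (chromosome 3, 81957090 to 81976202, minus strand). It had 983 to 1390.0 CPM in RYGB (median 1199 CPM), 785 to 1834 CPM in WM (median 1454 CPM) and 802 to 1379 CPM in Sham (median 951 CPM), the highest mean of the 9 in each group. In WM 7 of 8 libraries lay above the Sham median and 5 above the highest Sham library, while WM 25 lay below the lowest. The mean rose to 1408 ± 297 CPM in WM, against 998 ± 188 CPM in Sham, a difference of 0.50 ± 0.16 (adjusted p = 0.0159). In RYGB Tdo2 averaged 1179 ± 139 CPM, a difference of 0.24 ± 0.16 (adjusted p = 0.278). The GC content of its transcripts was 39.6%, the lowest of the 9, against a median of 49.1% over 13098 genes. After the GC and length correction the differences were 0.55 in RYGB (adjusted p = 0.00232) and 0.87 in WM (adjusted p = 8.95e-06), so that Tdo2 was then called in both.

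Kmo, kynurenine 3-monooxygenase, hydroxylates kynurenine in the outer mitochondrial membrane (chromosome 1, 175620381 to 175662116, plus strand). It had 128 to 166 CPM in RYGB (median 156 CPM), 103 to 181 CPM in WM (median 135 CPM) and 113 to 183 CPM in Sham (median 139.6 CPM). The 3 groups covered nearly the same range, and the spread was the smallest of the members within RYGB. The differences from Sham were 0.10 ± 0.13 in RYGB (adjusted p = 0.634) and -0.04 ± 0.13 in WM (adjusted p = 0.831). The 95% interval of the fold was 0.886 to 1.30 in RYGB and 0.801 to 1.17 in WM. Corrected for GC content and length, the differences were 0.28 in RYGB (adjusted p = 0.186) and 0.21 in WM (adjusted p = 0.304).

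Haao, 3-hydroxyanthranilate 3,4-dioxygenase, makes the precursor of quinolinate (chromosome 17, 83831156 to 83847963, minus strand). It had 304 to 760.2 CPM in RYGB (median 399 CPM), 139 to 1084 CPM in WM (median 404 CPM) and 103 to 497 CPM in Sham (median 295 CPM). The groups overlapped, and the lowest libraries, WM 9 and Sham 2, and the highest of WM and Sham, WM 25 and Sham 3, were those of Hpd. The means were 478 ± 186 CPM in RYGB, 458 ± 296 CPM in WM and 298 ± 145 CPM in Sham. The difference from Sham was 0.68 ± 0.34 in RYGB (adjusted p = 0.15) and 0.62 ± 0.34 in WM (adjusted p = 0.166), and none of 36 alternatives called it in either group. Without WM 25 the difference in WM was 0.31. After the GC and length correction it was 0.65 in RYGB and 0.56 in WM.

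Of the other 10 tested genes from tryptophan to NAD, 7 rose in RYGB and 4 in WM, and none was called lower by edgeR or had an unadjusted p under 0.05 in that direction. The shares of all tested genes called higher were 12.7% in RYGB and 16.5% in WM. Acmsd, which diverts the intermediate made by Haao away from NAD, had the largest difference of these in RYGB. It rose to 22.9 ± 6.84 CPM in RYGB, against 7.76 ± 3.42 CPM in WM and 6.89 ± 1.98 CPM in Sham. The difference was 1.73 ± 0.24 from Sham (adjusted p = 8.46e-06) and 1.56 ± 0.24 from WM (adjusted p = 0.000420), while that of WM from Sham was 0.17 ± 0.24 (adjusted p = 0.619). Kyat1 and Aadat, aminotransferases that turn kynurenine into kynurenic acid, rose in both groups. Kyat1 averaged 50.8 ± 23.5 CPM in RYGB and 50.4 ± 21.0 CPM in WM, against 16.8 ± 7.50 CPM in Sham. Aadat averaged 59.3 ± 9.91 CPM in RYGB and 55.0 ± 8.98 CPM in WM, against 33.6 ± 9.67 CPM in Sham. Afmid, the formamidase after Tdo2, and Nadsyn1, which makes NAD in the last step, also rose in both. Kynu, kynureninase, rose in RYGB by 0.61 ± 0.17 (adjusted p = 0.0094) and had a difference of 0.15 ± 0.17 in WM (adjusted p = 0.529). Ido2, a second dioxygenase of tryptophan, rose in RYGB by 0.54 ± 0.18 (adjusted p = 0.0243) and had a difference of 0.20 ± 0.18 in WM (adjusted p = 0.402). Of these 10 genes, Acmsd was called between RYGB and WM, and the difference of Kynu there was 0.46 ± 0.17 (adjusted p = 0.241).

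Agxt, alanine-glyoxylate aminotransferase, turns glyoxylate into glycine, and its loss in humans causes primary hyperoxaluria type 1 (chromosome 1, 93135240 to 93145421, plus strand). It had 98.8 to 212 CPM in RYGB (median 125 CPM), 113 to 398 CPM in WM (median 144 CPM) and 46.3 to 118 CPM in Sham (median 65.7 CPM). All RYGB and WM libraries lay above the Sham median, 5 of RYGB and 7 of WM lay above the highest Sham library, and the overlap came from Sham 3. The mean rose to 141 ± 42.3 CPM in RYGB and 178 ± 94.0 CPM in WM, against 72.2 ± 21.5 CPM in Sham. The log2 difference was 0.97 ± 0.24 in RYGB (adjusted p = 0.00382) and 1.30 ± 0.24 in WM (adjusted p = 0.000153). Agxt was called in both comparisons in all 36 alternatives, and was the only member for which that held in both. After the GC and length correction the differences were 0.72 in RYGB and 0.96 in WM. RYGB 18, RYGB 19 and RYGB 29 were the 3 highest RYGB libraries for Agxt and also for Hpd, Fah and Haao. These 3 also had the highest GC slopes of RYGB (0.463, 0.37 and 0.269 log2 units per 10 points of GC). The first 2 of them hold the acinar transcripts, while the acinar sum of RYGB 29 was 38.0 CPM. The part of either in these levels was not tested.

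Gldc, the glycine decarboxylase that starts the mitochondrial cleavage of glycine, had the lowest levels of the 9 (chromosome 19, 30098447 to 30175429, minus strand). It had 14.5 to 31.4 CPM in RYGB (median 20.3 CPM), 5.67 to 28.4 CPM in WM (median 14.4 CPM) and 19.9 to 46.5 CPM in Sham (median 28.8 CPM). All 8 WM libraries lay below the Sham median and 6 lay below the lowest Sham library. The mean fell to 14.8 ± 7.21 CPM in WM, against 30.8 ± 8.80 CPM in Sham, a difference of -1.05 ± 0.25 (adjusted p = 0.00162), and it was called in all 36 alternatives. In RYGB Gldc averaged 21.3 ± 5.33 CPM, a difference of -0.53 ± 0.24 (adjusted p = 0.113), with 7 of 8 libraries below the Sham median. After the GC and length correction the differences were -1.03 in WM (adjusted p = 0.00183) and -0.50 in RYGB (adjusted p = 0.132).

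Other subunits of the glycine cleavage system did not move as Gldc did. Gcsh, the lipoyl carrier protein, rose by 0.60 ± 0.17 in RYGB (adjusted p = 0.00853) and 0.62 ± 0.17 in WM (adjusted p = 0.0054). Amt, the aminomethyltransferase, rose by 0.55 ± 0.18 in RYGB (adjusted p = 0.0226) and had a difference of 0.12 ± 0.18 in WM (adjusted p = 0.644). Dld, the shared dehydrogenase, had 0.46 ± 0.22 in RYGB (adjusted p = 0.129) and 0.17 ± 0.22 in WM (adjusted p = 0.592). The whole list of 18 other tested genes of glycine, serine and glyoxylate held 8 higher and 1 lower in RYGB, and 7 higher and 0 lower in WM, where no gene had an unadjusted p under 0.05 in the lower direction. Over all tested genes the shares were 12.7% higher and 11% lower in RYGB, and 16.5% and 15% in WM. Gnmt, which methylates glycine to sarcosine, rose to 2423 ± 1188 CPM in RYGB and 3208 ± 1831 CPM in WM, against 754 ± 260.2 CPM in Sham. Its differences were 1.68 ± 0.32 in RYGB (adjusted p = 0.000341) and 2.09 ± 0.33 in WM (adjusted p = 1.98e-05). Dmgdh, which makes sarcosine from dimethylglycine, rose by 1.24 ± 0.17 in RYGB and 0.97 ± 0.17 in WM. Gcat, which makes glycine from threonine, rose by 1.14 ± 0.20 in RYGB and 1.23 ± 0.20 in WM. Prodh2, a hydroxyproline dehydrogenase upstream of glyoxylate, rose by 0.73 ± 0.22 in RYGB and 1.10 ± 0.22 in WM, and Shmt1, a serine hydroxymethyltransferase, by 0.52 ± 0.19 in RYGB and 0.88 ± 0.19 in WM. Grhpr, which reduces glyoxylate, rose in WM by 0.68 ± 0.18 and had a difference of 0.46 ± 0.18 in RYGB (adjusted p = 0.0685). Sds, serine dehydratase, fell to 30.2 ± 13.9 CPM in RYGB, against 66.1 ± 30.9 CPM in Sham, a difference of -1.13 ± 0.33 (adjusted p = 0.0129). In WM the difference of Sds was -0.39 ± 0.33 (adjusted p = 0.38), and between RYGB and WM it was not called (adjusted p = 0.378).

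**Figure D3:**
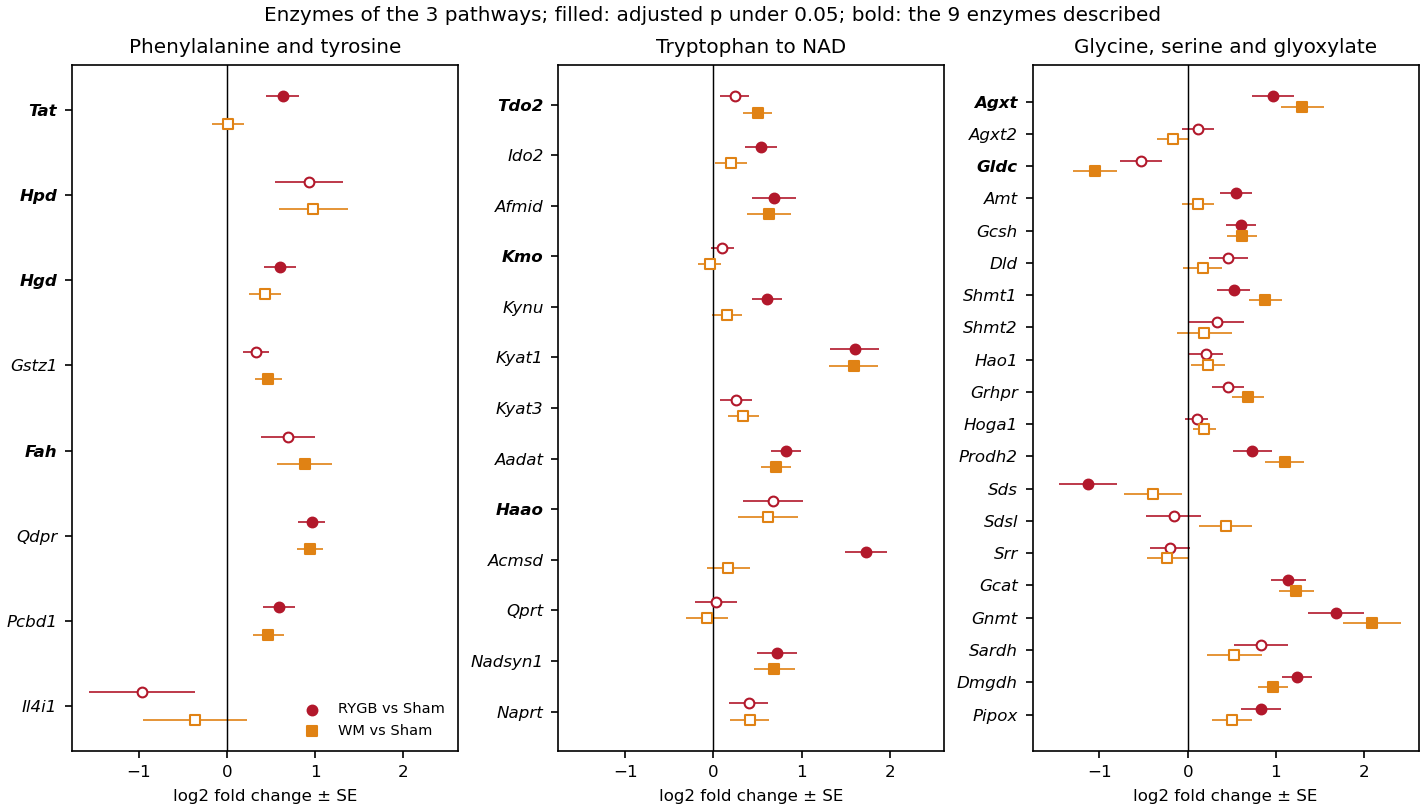
Log2 fold changes against Sham of tested genes of the 3 pathways, with bars for the standard error, filled points for an adjusted p under 0.05, the 9 members in bold and RYGB above WM. Most genes lie right of 0, with Gldc and Sds among those to the left.

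Counting the 3 pathways together without the members, 18 of 33 genes rose and 1 fell in RYGB, and 15 rose and 0 fell in WM, against 12.7% and 16.5% of all tested genes called higher. The median log2 difference of the 33 was 0.55 in RYGB and 0.47 in WM. Hepatocyte markers rose in the same comparisons, as given above. Without RYGB 18, RYGB 19 and Sham 17 the count in RYGB was 11 higher and 0 lower. Scaling by library totals in place of TMM moved the median of all tested genes to -0.36 in RYGB and -0.33 in WM, and the counts of the 33 to 8 higher in each. Under that scaling the calls of Tat (0.29) and Hgd (0.26) in RYGB and of Fah (0.54) and Tdo2 (0.17) in WM were lost, and relative to that median they stood at 0.65, 0.62, 0.87 and 0.50. Agxt was still called higher in both and Gldc lower in both, while the differences of Tdo2 and Kmo in RYGB had a negative sign (-0.13 and -0.25). Taken relative to the median of all genes, the difference of Tdo2 in RYGB was 0.23 and that of Kmo 0.11.

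The direct comparison of RYGB with WM sets the operation against weight matching. None of the 9 members was called by edgeR, against 1.49% of all tested genes, 1.06% higher and 0.434% lower, and 2 had an unadjusted p under 0.05 (Tat and Gldc), while DESeq2 called 1 (Tat). Tat averaged 147 ± 27.3 CPM in RYGB and 95.7 ± 21.9 CPM in WM, and the 95% interval of the fold was 1.18 to 2.00. Gldc averaged 21.3 ± 5.33 CPM in RYGB and 14.8 ± 7.21 CPM in WM, a difference of 0.52 ± 0.24 (adjusted p = 0.417) with an interval of 1.02 to 2.03. Agxt had a difference of -0.33 ± 0.24 (adjusted p = 0.693, interval 0.568 to 1.11), which was -0.05 without WM 25. The interval was 0.671 to 1.04 for Tdo2 and 0.873 to 1.46 for Hgd, and Kmo had a difference of 0.14 ± 0.13 (adjusted p = 0.801). It was widest for Hpd (0.558 to 1.66), Fah (0.563 to 1.35) and Haao (0.645 to 1.68), whose libraries varied most. Folds within these intervals are not excluded by the data. Without WM 25 the log2 difference was 0.29 for Hpd, 0.21 for Fah, 0.37 for Haao and 0.40 for Hgd, against -0.06, -0.20, 0.06 and 0.17 with it.

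Some of the members varied together among libraries of the same group. After each group's mean was removed, the log2 levels of Hpd and Haao had a Pearson r of 0.962 over 24 libraries (Spearman rho 0.948, adjusted p = 0.00012 for each, by permutation of libraries within groups). The 36 pairs were adjusted together, and 1e-05 is the smallest p that the permutations can give. Fah and Haao had r = 0.912 (rho 0.93), Hpd and Fah 0.845 (rho 0.853), and Hgd and Fah 0.796 (rho 0.707). By Pearson r, 10 of the 36 pairs passed in the positive direction and 5 in the negative direction. None of these pairs held Kmo, and Tat and Gldc passed only with each other. The 5 negative pairs all held Tdo2, which had r = -0.832 with Hpd, -0.828 with Fah, -0.814 with Haao, -0.712 with Agxt and -0.658 with Hgd. By Spearman rho, Tat with Gldc (0.412, adjusted p = 0.134) and Hgd with Tdo2 (-0.403, adjusted p = 0.125) did not pass. For each pair, the 2 libraries farthest from the median of its first-listed gene were then left out. The libraries left out could thus differ between pairs, and those far out for the second gene were not sought. By r, 4 of the passing pairs then no longer passed, namely Hgd with Agxt (0.402), Hgd with Haao (0.452), Tat with Gldc (0.366) and Hgd with Tdo2 (-0.391).

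**Figure D4:**
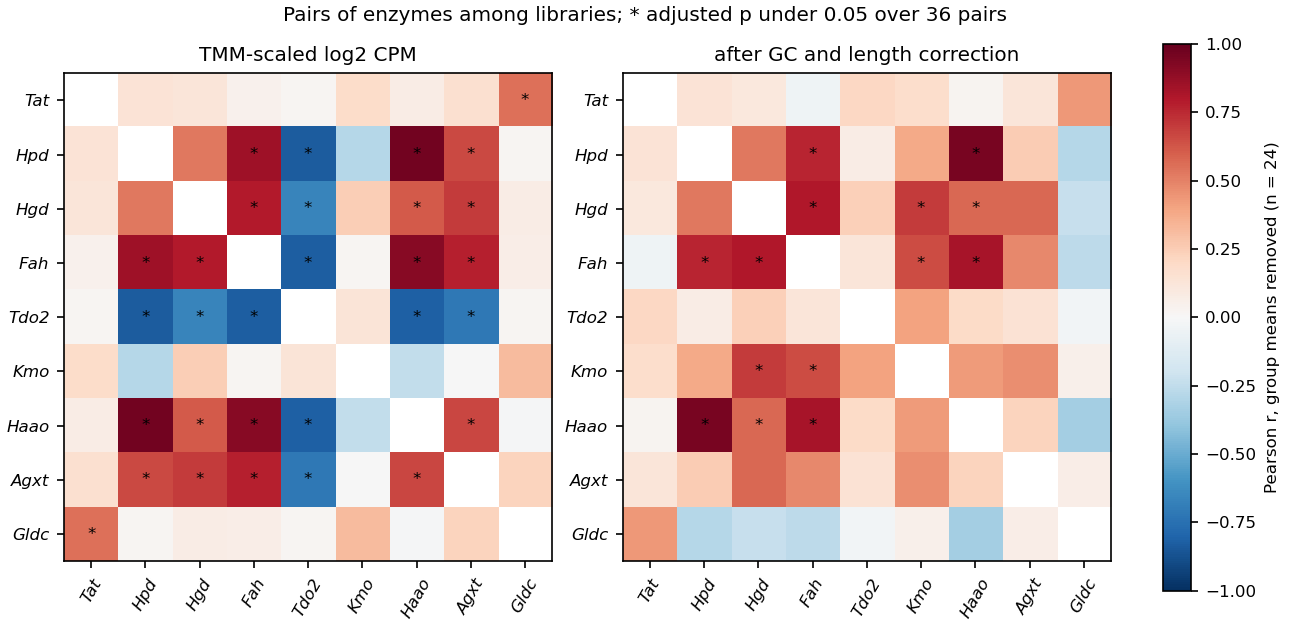
Pearson r between the 9 enzymes over 24 libraries after removing group means, before and after correction for GC content and transcript length, with an asterisk where the adjusted p over 36 pairs is under 0.05. Hpd, Fah and Haao form a block of high r in both, and the negative values of Tdo2 are near 0 or above after correction.

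The GC content of the transcripts moved with part of this pattern. It was 54.1% for Hpd, 54.2% for Fah, 56.2% for Agxt and 51.1% for Haao, against 39.6% for Tdo2. Gldc, at 53.7%, had r = 0.0204 with Hpd, 0.068 with Fah and -0.00942 with Haao, and Hgd, at 49.2%, lay near the median of all genes. In WM and Sham the libraries at the ends of the GC slope (WM 25, WM 9, Sham 2 and Sham 3) were also at the ends of the Hpd, Haao and Tdo2 levels. In RYGB the ends of the slope were RYGB 18 and RYGB 28, which were the ends for Hpd and Haao, while those of Tdo2 were RYGB 15 and RYGB 29. After each library was corrected for its trends on transcript GC and length, 7 positive pairs and no negative pair passed. Of the 10 positive pairs 5 still passed and 5 did not, and 2 pairs passed that had not before, Hgd with Kmo (0.697) and Fah with Kmo (0.652). The 4 positive pairs of Agxt no longer passed, at 0.481 with Fah, 0.574 with Hgd, 0.219 with Haao and 0.256 with Hpd, nor did Tat with Gldc (0.432). Hpd with Haao was then 0.95, Fah with Haao 0.826, Hpd with Fah 0.762, Hgd with Fah 0.801 and Hgd with Haao 0.571. The 5 pairs of Tdo2 were then 0.0767 with Hpd, 0.119 with Fah, 0.194 with Haao, 0.148 with Agxt and 0.242 with Hgd. Within groups, the SD of the log2 level went down with the correction to 0.181 for Tdo2 (0.272 without it), to 0.332 for Agxt (0.478), to 0.497 for Fah (0.653), to 0.752 for Hpd (0.91) and to 0.704 for Haao (0.772). For Kmo it went up to 0.274 (0.21), and for Tat (0.378 with it, 0.373 without), Hgd (0.34, 0.328) and Gldc (0.52, 0.521) it moved little.

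**Figure D5:**
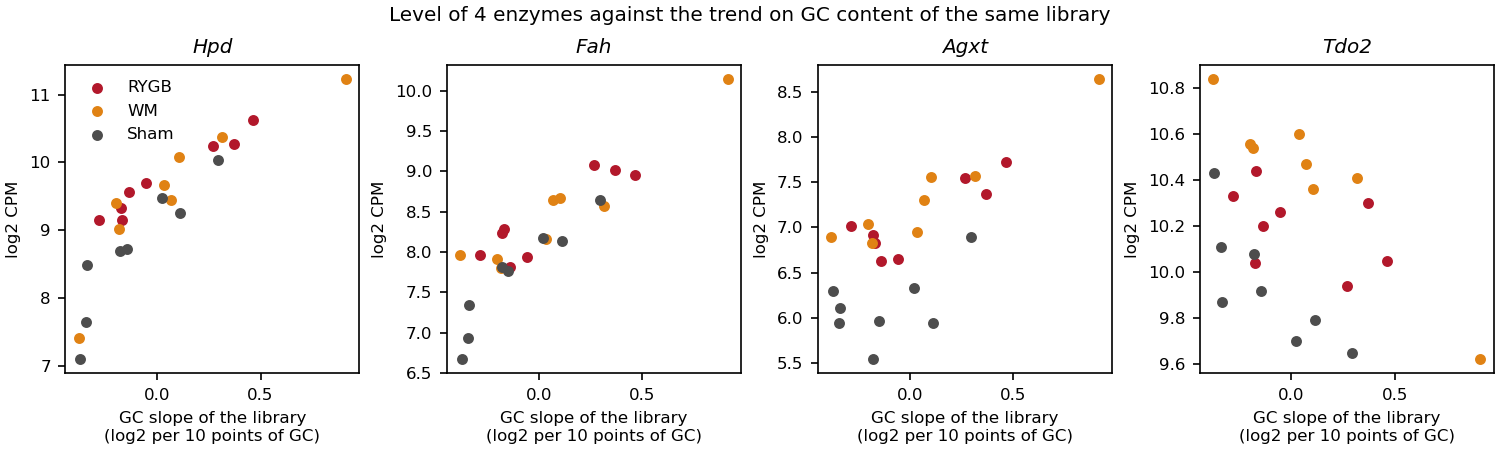
Level of Hpd, Fah, Agxt and Tdo2 in each library (log2 of TMM-scaled CPM) against the slope of that library's gene levels on transcript GC content (log2 units per 10 points of GC), 1 point per library. WM 25, at a slope of 0.914, is the highest point for Hpd, Fah and Agxt and the lowest for Tdo2.

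For 7 of the members the gene most like each among 11859 other tested genes was found by the same group-centred correlation over 24 libraries, which share depth and base composition. Fah was most like Cbs (r = 0.974, rho 0.966), Haao most like Tmem86b (0.976, rho 0.964) and Hpd most like Fxyd1 (0.968, rho 0.963). Hgd was most like Acaa1b (0.892, rho 0.823). Kmo, Gldc and Tat had no such close partner, with Cmas (0.756, rho 0.776), Tomm34 (0.715, rho 0.74) and Adipoq (0.712, rho 0.742) the most alike.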

How the data were processed

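Per the labels' protocols, frozen mouse liver was extracted with Trizol and an RNeasy kit, and libraries were made with a QuantSeq 3′ kit and read for 50 bp. Priming at poly(A) can also start inside a transcript. The authors deposited raw counts for 14995 genes and a normalized signal, each count divided by 1 factor per library, since the ratio of the deposited tables was constant within each library to a relative 9.9e-15. DESeq2 1.34 and R 4.1.2 are listed in the submitters' processing notes. Aligner, counter, strand setting and build: not given in the sources used here. Deposited coordinates belong to another build than GENCODE M21 (GRCm38), which names 14959 of the genes and gave the coordinates printed. Promoters come from RefSeq on GRCm38.p6.

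Tests on the raw counts used edgeR 4.0.16 in R 4.3.3, with filterByExpr, TMM scaling and a quasi-likelihood fit of 24 libraries without covariates (common dispersion as a biological coefficient of variation 0.398, with 7.91 prior degrees of freedom). Differences were adjusted by Benjamini-Hochberg over 13121 genes. Correlations used 100000 permutations within groups and a prior count of 2. The tests of group differences and the GC and length correction were checked on simulated data, and the correlations were not. Over the 3 comparisons, 8.96% to 13.6% of simulated 1.5-fold changes were called, 37.9% to 49.2% of 2-fold changes and 86.4% to 96.8% of 4-fold changes. Each simulated comparison held 63 to 67 changed genes of each fold among 12848 to 12902 tested genes. In the real data 23.7% of tested genes were called in RYGB and 31.4% in WM against Sham. The Benjamini-Hochberg cut-off on p depends on that share, so the simulated shares do not carry over to the members. A lack of a call does not show that a member is unchanged. Alternatives used DESeq2 1.42.0, limma 3.58.1 with a pseudocount of 1 for limma-trend on the deposited signal, and mgcv 1.9.3 for the GC and length correction. The members, gene lists and tests were chosen with earlier results of these data known. Named were all members, called genes of the 3 pathway lists, the 2 called genes with the smallest p in each direction of every other amino acid list, and the most alike gene of each member. Some of the genes taken by this rule are left out of the text and figures. Dld was named after its values were seen, to complete the glycine cleavage system. Prodh, Spp1 and Cela1 were also named outside this rule. Further marker lists used as background were those of Kupffer, endothelial, stellate, cholangiocyte, lymphocyte and red blood cells.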

Additional observations from a re-analysis of the deposited data

Results flagged for a closer look

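Among 27 sets of 8 libraries, 1 for each member and group, 3 held a library whose gap to its nearest neighbour relative to the group's range exceeded Dixon's 95% critical value. Chance gives about 1 in 20. All 3 were WM 25 and all were high. Hgd had 764 CPM in WM 25, against 389.6 CPM in the next WM library, a gap of 0.779 of the range. Fah had 1125 CPM in WM 25, against 407 CPM in the next, a gap of 0.796. Agxt had 398 CPM in WM 25, against 189.7 CPM in the next, a gap of 0.732. WM 25 also had the steepest GC slope of the 24 libraries (0.914 log2 units per 10 points of GC) and the highest hepatocyte marker sum in WM (171610 CPM). The part of these in its levels was not tested.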

How the results depend on the processing

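Each of 27 member differences was recomputed under 36 alternatives, of which 24 left out 1 library each. In each comparison 8 of those 24 dropped a library of the group not compared, which leaves both compared means nearly as they were. Of the 972 values 904 kept their direction and side of the threshold, 15 lost a call, 20 gained a call and 33 changed sign. Many values were thus bound to be kept by the design. The members called higher in RYGB (3) numbered 1 under library totals, 6 under limma-voom with quality weights and 5 in a fit of the compared groups alone (3 to 5 with each library left out), and 1 was called lower under library totals and in that fit. In WM, 3 higher became 1 under library totals (2 to 4 with each left out). DESeq2 called 1 member in RYGB vs WM. The other pathway genes called higher in RYGB (18) numbered 8 under library totals and 11 without RYGB 18, RYGB 19 and Sham 17, with or without WM 25 (15 to 20 with each left out). The 1 called lower in RYGB became 0 without RYGB 18, RYGB 19 and Sham 17 where WM 25 was kept. Other pathway genes called higher in WM (15) numbered 8 under library totals. In RYGB vs WM, 1 was called lower without Sham 2, WM 9 and WM 25. Over all genes in RYGB vs Sham, 1666 higher and 1443 lower became 754 and 3534 under library totals, and voom called 2598 lower. In WM vs Sham, 2161 and 1964 became 1049 and 3637. In RYGB vs WM, 139 higher became 223 (DESeq2) and 228 (GC and length correction), and 57 lower became 134 (DESeq2), 88 (voom), 27 (compared groups alone) and 112 (GC and length correction), and 29 to 77 with each library left out, the lowest without RYGB 10, WM 27, RYGB 15 or WM 1. Pairs passing with a positive r (10) numbered 1 in RYGB alone and 3 in Sham alone, and those with a negative r (5) 0 in RYGB alone, 3 in Sham alone and 0 after the correction. Signs that changed were those of Tdo2 and Kmo in RYGB under library totals (-0.13, -0.25), Tat in WM (-0.31 under totals, -0.07 after the correction, -0.08 to 0.11 with each left out) and Kmo in WM (0.21 after the correction, -0.11 to 0.02). In RYGB vs WM they were Hpd (0.22 voom, 0.17 limma-trend, 0.08 corrected, 0.01 without RYGB 18, RYGB 19, Sham 17 and WM 25, 0.12 without Sham 2, WM 9 and WM 25, -0.22 to 0.29), Fah (0.16, 0.00 and 0.16 under voom and the last 2 exclusions, -0.30 to 0.21) and Haao (-0.19 without RYGB 18, RYGB 19 and Sham 17, -0.08 to 0.37). Tat with Gldc was -0.211 in RYGB alone, Hgd with Agxt -0.0979 in Sham alone, and the 5 Tdo2 pairs turned to 0.0767 to 0.242 after the correction (Fah 0.119, Agxt 0.148, Haao 0.194). The cause was not tested. Leaving out Sham 2, WM 9 and WM 25, and correcting the correlations, were chosen after seeing the data. No paired analysis was possible because no sample number is shared between the groups.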

Other observations

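Genes that break down other amino acids were measured in the same fit. Of 28 tested, 11 rose and 1 fell in RYGB against Sham, and 8 rose in WM, where none was called lower and 1 had an unadjusted p under 0.05 in that direction. Of all tested genes, 12.7% were called higher and 11% lower in RYGB, and 16.5% higher and 15% lower in WM. Oat, which feeds ornithine into glutamate, rose to 1330.3 ± 506 CPM in RYGB and 788 ± 171 CPM in WM, against 472 ± 231 CPM in Sham (log2 differences of 1.49 ± 0.25 in RYGB and 0.74 ± 0.25 in WM). Cth, cystathionine gamma-lyase, rose to 454 ± 149 CPM in RYGB, against 239 ± 52.7 CPM in WM and 187 ± 75.8 CPM in Sham, and it was the 1 gene of this list called between RYGB and WM (0.93 ± 0.22, adjusted p = 0.0235). Cdo1, cysteine dioxygenase, rose by 0.93 ± 0.20 in RYGB and 0.87 ± 0.20 in WM. Prodh, proline dehydrogenase, rose by 1.10 ± 0.27 in RYGB and 1.06 ± 0.27 in WM, and Gls2, liver glutaminase, by 0.68 ± 0.19 in RYGB and 0.81 ± 0.19 in WM. Gpt2, a mitochondrial alanine aminotransferase, fell in RYGB (-0.80 ± 0.19, adjusted p = 0.0033) and had a difference of -0.45 ± 0.19 in WM (adjusted p = 0.0787). Between RYGB and WM it was not called (-0.36 ± 0.19, adjusted p = 0.516).

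Of 13 tested amino acid transporters, 2 rose and 1 fell in RYGB, and none was called in WM, where 3 had an unadjusted p under 0.05. Slc6a9, a glycine transporter, fell to 8.87 ± 6.05 CPM in RYGB, against 20.8 ± 12.0 CPM in Sham (-1.23 ± 0.42, adjusted p = 0.0321). In WM the difference of Slc6a9 was -0.71 ± 0.41 (adjusted p = 0.197), and between RYGB and WM it was not called (adjusted p = 0.748). Of 16 regulators of amino acid metabolism, 3 rose and 1 fell in RYGB and 3 rose and 3 fell in WM. Over all tested genes the shares were 12.7% higher and 11% lower in RYGB, and 16.5% and 15% in WM. Counts in lists of 13 and 16 genes are not read as apart from these shares. Ppara, a fatty acid sensing nuclear receptor, fell to 166 ± 77.6 CPM in RYGB and 226 ± 112 CPM in WM, against 393 ± 125 CPM in Sham. Ppargc1a, a coactivator of fasting gene expression, fell to 7.66 ± 2.74 CPM in WM, against 15.5 ± 3.75 CPM in Sham (-1.01 ± 0.21, adjusted p = 0.000422), while RYGB had 13.1 ± 2.82 CPM (-0.24 ± 0.20, adjusted p = 0.406). Foxa2, a hepatocyte transcription factor, rose in both groups, by 0.65 ± 0.19 in RYGB and 0.62 ± 0.19 in WM. Gcgr, the glucagon receptor, rose in WM by 0.64 ± 0.17 (adjusted p = 0.00562) and had a difference of 0.41 ± 0.17 in RYGB (adjusted p = 0.0812).

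Summed Kupffer cell and macrophage markers were 178 to 858 CPM in RYGB, 207 to 565 CPM in WM and 96.9 to 408 CPM in Sham. Endothelial markers were 103 to 311 CPM in RYGB, 175 to 316 CPM in WM and 44.5 to 235 CPM in Sham, and stellate and fibroblast markers 270 to 389 CPM in RYGB, 196 to 388 CPM in WM and 420 to 812 CPM in Sham. Cholangiocyte markers were 36.3 to 56.2 CPM in RYGB, 25.2 to 42.3 CPM in WM and 48.1 to 104 CPM in Sham. Spp1, counted in both the cholangiocyte and the macrophage sums, averaged 15.2 CPM in RYGB, 10.7 CPM in WM and 40.2 CPM in Sham. Of 6 tested cholangiocyte markers, 0 were called higher and 1 lower in RYGB, and 0 higher and 2 lower in WM. Of 11 tested macrophage markers, 7 were called higher and 2 lower in RYGB, and 5 higher and 2 lower in WM. The shares of all tested genes were 12.7% higher and 11% lower in RYGB, and 16.5% and 15% in WM. A sum does not give the direction of each marker. Lymphocyte markers were 22.0 to 230.5 CPM in RYGB, 6.49 to 245 CPM in WM and 4.96 to 23.6 CPM in Sham, and red blood cell markers 2806 to 5662 CPM in RYGB, 1407 to 9955 CPM in WM and 748 to 2410 CPM in Sham.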
